A study of Mus musculus with 6 samples.

Results

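The metallothioneins of the mouse are 4 small genes, Mt1, Mt2, Mt3 and Mt4, and all 4 were found by symbol among the 24411 genes of the deposited tables. They were selected on measured values of the same libraries: the low count of Mt3 and its lower level in double knockout testes, beside the high counts of its neighbours Mt1 and Mt2. The comparison of double knockout with wildtype is therefore given for the members as a description, with no test. Total RNA of whole testes was sequenced from 6 C57BL/6 mice, an inbred strain. The 3 mice labelled MRP5-/- and MRP9-/- (DKO, for double knockout) are given as lacking 2 transporters of the ABCC family, MRP5 (encoded by Abcc5) and MRP9 (encoded by Abcc12). The other 3 mice are labelled Wildtype (WT). The design text calls the mice age-matched. The age itself, the design of the alleles and the breeding of the WT mice are not given in the sources used here. Replicate numbers only name libraries and pair none.

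Metallothioneins are short proteins rich in cysteine, and the sulfur atoms of these cysteines hold zinc and copper in clusters. Mt1 and Mt2 are made in most tissues and are induced by metals through the zinc-sensing transcription factor MTF-1, by glucocorticoids and by oxidative stress. Mt3 is best known from neurons, where its protein was first described as a growth inhibitory factor, and Mt4 from stratified squamous epithelium. In the testis, zinc is needed for spermatogenesis, and the organ is sensitive to cadmium, a metal that metallothioneins also bind.

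All 4 genes lie on the plus strand of chromosome 8 (GRCm38, the assembly also called mm10), within 43.1 kb. In RefSeq coordinates Mt4 is at chr8:94137204-94139031, Mt3 at chr8:94152607-94154148, Mt2 at chr8:94172618-94173567 and Mt1 at chr8:94178883-94180327. Mt3 is separated from Mt4 by 13.6 kb and from Mt2 by 18.5 kb, and Mt2 from Mt1 by 5.32 kb. The cluster lies about 7.65 Mb from Abcc12 on the same chromosome, measured to the start of Mt3. In GENCODE M21 the transcript of each gene has 3 exons. The coding sequences are shown because they hold bases that set Mt3 apart from its neighbours. Counting used whole transcripts, of which the coding bases are only a part. The coding sequences were read from GENCODE M21 transcripts that carry the RefSeq accessions of the deposited tables. Capitals in Mt3 mark the bases that a global alignment places opposite a gap in Mt1.
Mt1: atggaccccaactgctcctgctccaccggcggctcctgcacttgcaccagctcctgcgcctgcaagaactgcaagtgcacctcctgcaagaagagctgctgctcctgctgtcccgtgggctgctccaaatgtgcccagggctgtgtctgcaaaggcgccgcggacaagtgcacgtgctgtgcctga
Mt2: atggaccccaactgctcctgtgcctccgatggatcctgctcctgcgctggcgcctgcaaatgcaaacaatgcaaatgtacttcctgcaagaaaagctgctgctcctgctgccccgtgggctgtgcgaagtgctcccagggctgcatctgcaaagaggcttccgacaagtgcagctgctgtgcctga
Mt3: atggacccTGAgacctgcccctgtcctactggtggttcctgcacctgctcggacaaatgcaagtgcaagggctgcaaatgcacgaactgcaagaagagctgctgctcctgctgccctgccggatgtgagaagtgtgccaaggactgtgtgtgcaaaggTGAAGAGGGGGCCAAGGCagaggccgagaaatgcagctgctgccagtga
The coding sequence of Mt1 and that of Mt2 each hold 186 bases with the stop codon, and 79.6% of their aligned bases are identical. Mt3 has 207 coding bases and 72.6% identity to Mt1 over the aligned part. Its additional bases are 3 near the start (from coding base 9) and a block of 18 bases from coding base 159. The exact placing of such gaps depends on the alignment. Mt3 has 68 codons, 20 of which are cysteine codons (29.4%), against 20 of 61 in both Mt1 and Mt2 (32.8%). The longest stretch that the whole GENCODE transcripts of Mt1 and Mt3 share is 27 bases, and that of Mt2 and Mt3 is 20 bases. These transcripts hold 549, 511 and 536 bases for Mt1, Mt2 and Mt3. The counted transcripts hold 542, 556 and 538 bases, so they are not identical to those compared. The expected count of every member was a whole number in all 6 libraries, so none carried the fractions that RSEM gives to shared fragments.

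The 250 bases before the start site of the RefSeq promoter table are shown for the 3 members with counts, because MTF-1 acts through short metal response elements in such stretches. Capitals mark matches on either strand to TGCACNC or TGCGCNC, both spellings of the core of that element. For Mt1, RefSeq lists 2 transcripts, and the table does not name the one it used. Its start site for Mt1 is base 94179089, which lies 206 bases inside the gene's span, so most of the Mt1 stretch lies within that span.
Mt1, chr8:94178839-94179088: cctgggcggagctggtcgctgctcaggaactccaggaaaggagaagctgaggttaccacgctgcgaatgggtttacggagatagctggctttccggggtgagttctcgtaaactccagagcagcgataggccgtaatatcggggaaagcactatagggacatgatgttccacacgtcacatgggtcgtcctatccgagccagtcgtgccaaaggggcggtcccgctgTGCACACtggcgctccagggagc
Mt2, chr8:94172368-94172617: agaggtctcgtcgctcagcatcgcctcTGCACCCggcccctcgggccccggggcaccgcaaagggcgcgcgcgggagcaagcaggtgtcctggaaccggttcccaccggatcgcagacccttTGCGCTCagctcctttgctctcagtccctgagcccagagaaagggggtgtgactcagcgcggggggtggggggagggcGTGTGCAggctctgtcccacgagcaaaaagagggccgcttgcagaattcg
Mt3, chr8:94152357-94152606: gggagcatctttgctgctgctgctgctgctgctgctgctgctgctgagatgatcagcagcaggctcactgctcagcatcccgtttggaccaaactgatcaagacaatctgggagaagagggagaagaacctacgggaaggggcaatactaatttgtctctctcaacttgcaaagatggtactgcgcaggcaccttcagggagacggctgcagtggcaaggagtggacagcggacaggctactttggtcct
The Mt2 stretch held 3 matches, a number reached by 1.26% of 32841 RefSeq windows of the same length. The Mt1 stretch held 1 match, and 21.4% of all windows held at least 1. None was found in the 250 bases of Mt3. A match is a description of the letters, and its absence says nothing of the factor, since sequence outside these stretches was not searched. This includes the bases after each listed start site, which for Mt1 lies inside the gene's span. The matches counted may therefore not be all the elements of a gene, and Mt1 and Mt2 are not compared by them.

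Depth and fragment length differed between the groups and bear on such short transcripts. Libraries held 42673615 to 67131103 expected counts in DKO and 26753721 to 31745969 in WT. The mean fragment length was 317, 289 and 275 bases in DKO replicates 1, 2 and 3 and 258, 230 and 246 bases in WT replicates 1, 2 and 3. DKO and WT did not overlap in either quantity (p = 0.1 for each by a two-sided exact permutation test over libraries, its smallest value with 3 against 3). Fragment length and genotype cannot be told apart by any batch in the labels. Of the targeted genes, Abcc12 was counted at 82.1, 82.4 and 72.6 CPM (counts per 1000000 of the scaled library) in DKO and at 165, 158 and 158 CPM in WT. Abcc5 was at 17.0, 16.7 and 16.8 CPM in DKO and 10.5, 12.3 and 11.4 CPM in WT, so its transcript was not lower in the libraries labelled DKO. Exons are not resolved in gene-level counts, and groups are named by their labels.

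In WT testes the members differed widely in level. On the TPM scale (transcripts per 1000000, which accounts for length), Mt1 stood at 937 ± 35.6, Mt2 at 414 ± 3.76 and Mt3 at 9.65 ± 2.40 (mean ± SD over n = 3 libraries, as for all such values below). In DKO testes the TPM levels were 733 ± 78.9 for Mt1, 460 ± 75 for Mt2 and 3.20 ± 1.90 for Mt3. The order Mt1, Mt2, Mt3, Mt4 was the same in every library. The steps from Mt1 to Mt2 and from Mt2 to Mt3 were larger than the spread between replicates. The step from Mt3 to Mt4 was not in DKO replicate 1, where Mt3 had 1.76 TPM against a DKO SD of 1.90. By mean TPM over the 6 libraries, Mt1 ranked 153 and Mt2 ranked 374 among all 24411 genes, and Mt3 ranked 9443. Mt3 made up 0.493% to 0.824% of the summed metallothionein TPM in WT libraries and 0.163% to 0.430% in DKO libraries.

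**Figure D1:**
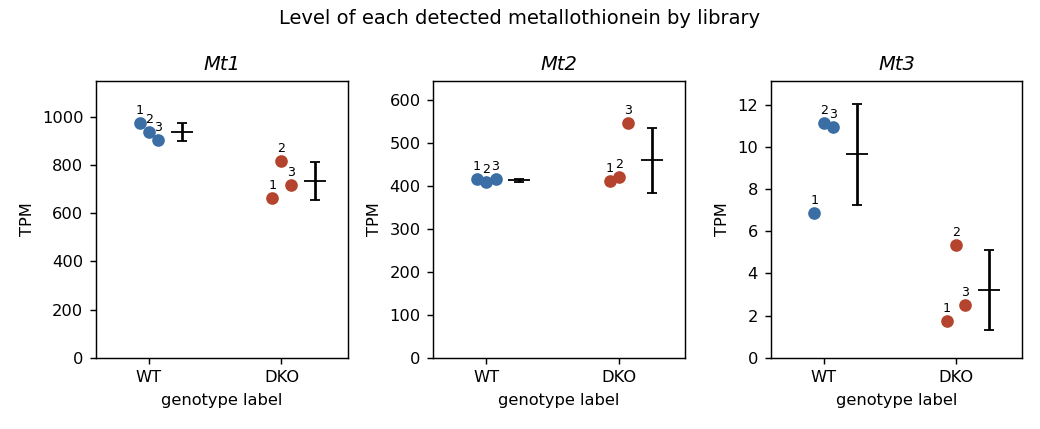
TPM of Mt1, Mt2 and Mt3 in each library by genotype label. Each point is 1 library with its replicate number, and the bar beside the points gives the mean and SD of 3 libraries. All 3 DKO libraries lie below all 3 WT libraries for Mt1 and Mt3, and the groups overlap for Mt2.

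Mt1, the most abundant member, had 663.68, 818.64 and 715.34 TPM in DKO replicates 1, 2 and 3. WT replicates 1, 2 and 3 had 973.36, 935.13 and 902.2 TPM. Every DKO library was thus below every WT library, with DKO replicate 2 the nearest to the WT range. On the CPM scale the level was 132 ± 22.4 in DKO and 187 ± 7.69 in WT. DKO thus stood at 70.3% of WT, or -0.51 ± 0.107 SE as a log2 fold change. In mean TPM it was 78.2% of WT. TPM divides by the effective length, the part of a transcript where a fragment can start, and for Mt1 this was 233.54 to 268.29 bases in DKO libraries and 289.7 to 314.64 bases in WT libraries, for a transcript of 542 bases.

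Mt2, which shares its inducers with Mt1, did not show a lower level. It had 412.49, 421.34 and 546.56 TPM in DKO replicates 1, 2 and 3, and 415.72, 409.63 and 416.49 TPM in WT replicates 1, 2 and 3. The groups overlapped: DKO replicates 1 and 2 lay within a few percent of the WT libraries and DKO replicate 3 stood above them all. CPM was 86.7 ± 15.7 in DKO and 86.5 ± 1.52 in WT, and the log2 fold change was 0.00482 ± 0.109 SE. Its sign turned with the setting and is not given a direction. The coefficient of variation of the CPM was 18.1% over the DKO libraries and 1.76% over the WT libraries.

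Mt3, the weak member, was counted with 12, 44 and 30 fragments in DKO replicates 1, 2 and 3 and with 36, 73 and 67 fragments in WT replicates 1, 2 and 3. Scaled to depth, these were 0.288, 1.0 and 0.444 CPM in DKO and 1.37, 2.18 and 2.17 CPM in WT. The DKO libraries lay below the WT libraries with no overlap, but the gap was narrow between DKO replicate 2 and WT replicate 1. Their exact Poisson 95% intervals, which cover counting error only, ran from 0.726 to 1.34 CPM and from 0.957 to 1.89 CPM and thus overlapped. In TPM, Mt3 was at 1.76, 5.35 and 2.5 in DKO replicates 1, 2 and 3 and at 6.88, 11.13 and 10.95 in WT replicates 1, 2 and 3. The log2 fold change in counts was -1.75 ± 0.363 SE, or 29.8% of WT, and the mean TPM was 33.2% of WT. The log2 fold change of Mt3 was the 7th lowest of 17110 tested genes. Mt3 was chosen for its lower level, so this rank is not read as a result. The log2 fold change was -2.34 without DKO replicate 2 and -1.48 without DKO replicate 1.

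Mt4, the epithelial member, had 0 counts in all 6 libraries. A count of 0 allows up to 0.0444 to 0.114 CPM in single libraries (3 counts per library). Its transcript of 391 bases leaves an effective length of 106.27 to 169.46 bases, so it is also the member that these libraries could detect least well.

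Mt4 did not pass the filter on low counts, so 3 of 4 members were tested in the fit over all genes. With edgeR's quasi-likelihood test, 2 of these 3, Mt1 and Mt3, were called lower in DKO at an adjusted p under 0.05. Over all tested genes, 10.8% were called in either direction, 5.10% lower and 5.75% higher. The same 2 members had every DKO library below every WT library in CPM, as had 17.5% of all tested genes. Since Mt3 was chosen for this difference, nothing is read from these counts. Both calls were lost without DKO replicate 1, WT replicate 2 or WT replicate 3, fits in which 11, 13 and 7 genes were called over the whole table against 1856 with all libraries.

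The 2 abundant members and Mt3 did not move in proportion within the libraries. The ratio of Mt1 to Mt3 in CPM was 384, 155 and 290 in DKO replicates 1, 2 and 3, against 143, 85.1 and 83.5 in WT replicates 1, 2 and 3. For Mt2 to Mt3 it was 252, 83.9 and 233 in DKO and 64.1, 38.9 and 40.3 in WT. Neither ratio overlapped between the groups, although DKO replicate 2 and WT replicate 1 lay close together in the first. On the log2 scale, Mt3 relative to Mt1 averaged -8.01 ± 0.669 in DKO and -6.65 ± 0.443 in WT, a difference of -1.36. Relative to Mt2 it averaged -7.41 ± 0.885 in DKO and -5.54 ± 0.402 in WT, a difference of -1.87. Ratios of this kind do not depend on how libraries are scaled to each other, and the 3 transcripts have nearly the same length (538 to 556 bases). A fit with the mean fragment length as a covariate gives differences of fitted log2 fold changes, not of mean ratios. This difference was -0.515 for Mt3 relative to Mt1 and -1.2 relative to Mt2. Without the covariate the fitted values were -1.75 for Mt3, -0.509 for Mt1 and 0.00482 for Mt2. The neighbours differed from each other too: Mt1 was 1.61, 1.94 and 1.31 times Mt2 in TPM in DKO replicates 1, 2 and 3 and 2.34, 2.28 and 2.17 times in WT replicates 1, 2 and 3. These are descriptions of the contrast that chose the members, with no test.

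**Figure D2:**
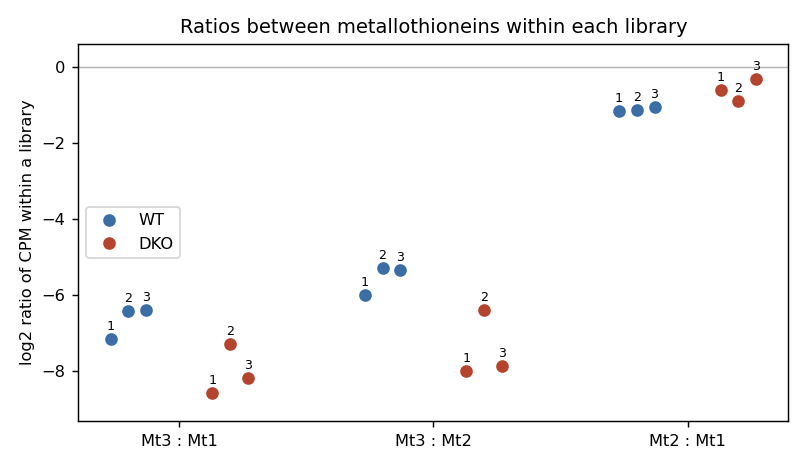
Log2 ratio of CPM between pairs of metallothioneins within each library, with the replicate number beside each point. Mt3 relative to Mt1 or Mt2 is lower in the 3 DKO libraries than in the 3 WT libraries, and Mt2 relative to Mt1 is higher.

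Fragment length moved with these values. DKO replicate 1, with the longest mean fragment (317 bases), had the lowest CPM of Mt1, Mt2 and Mt3. Among the DKO libraries Mt2 followed the order of fragment length, with 72.6 CPM at 317 bases, 83.9 CPM at 289 bases and 104 CPM at 275 bases. Mt1 and Mt3 did not, since replicate 2 (289 bases) had more CPM of both than replicate 3 (275 bases). The class of short transcripts moved too: of 675 tested genes of 400 to 700 bases, 20.7% were called lower and 5.19% higher, with a median log2 fold change of -0.20 against -0.0042 for all tested genes. With an offset for the effective length of each gene in each library, the log2 fold change was -0.31 for Mt1, 0.20 for Mt2 and -1.54 for Mt3. Mt1 no longer passed the threshold there (adjusted p = 0.0607 by edgeR). It passed with the length trend removed (-0.328, adjusted p = 0.0327 by edgeR). On log2(TPM + 1) and log2(TPM + 0.1) it passed as well (adjusted p = 0.0485 and 0.0428 by limma). With the mean fragment length as a covariate the log2 fold change was -0.31 for Mt1, 0.37 for Mt2 and -0.82 for Mt3. In that fit 1 gene was called over the whole table. The part of fragment length in the difference of Mt3 was not tested further.

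**Figure D3:**
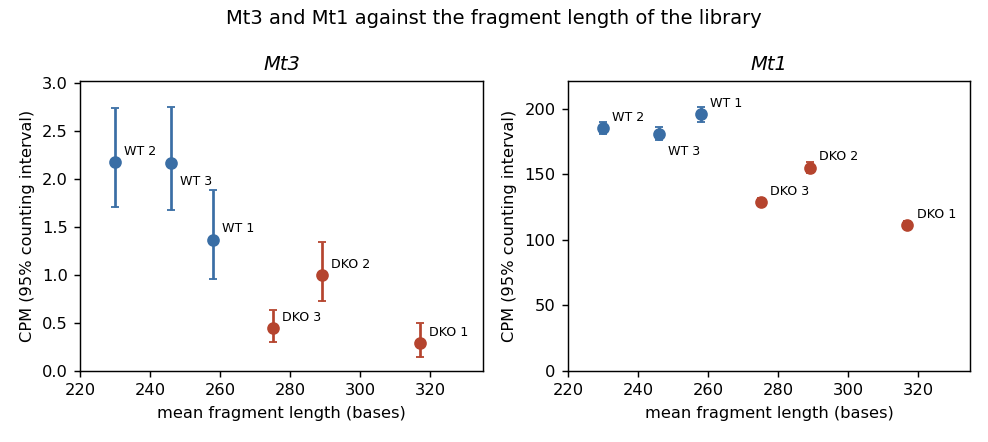
CPM of Mt3 and Mt1 in each library against the mean fragment length of that library, with exact Poisson 95% intervals for counting error. The 3 WT libraries have the shorter fragments (230 to 258 bases) and the higher values, and the 3 DKO libraries the longer fragments (275 to 317 bases) and the lower values.

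The genes on both sides of the cluster had log2 fold changes from -0.824 to 0.654, and that of Mt1 (-0.509) lay within this range. Mt3, at -1.75, was chosen for its lower level, so its place outside the range is not read as a result. Of the 15 tested genes on each side, 30 in all over 2.59 Mb, 1 was called higher and 1 lower (6.67%, against 10.8% of all tested genes), with a median log2 fold change of 0.0188. Bbs2, a subunit of the ciliary BBSome and the nearest tested gene before the cluster, was at 32.0 ± 1.93 CPM in DKO and 33.9 ± 0.403 in WT. Nup93, a nuclear pore scaffold protein and the nearest after it, was at 28.6 ± 1.60 and 29.0 ± 0.983 CPM. Their log2 fold changes were -0.08 and -0.02 (adjusted p = 0.489 and 0.891 by edgeR). The next genes, Ogfod1, Slc12a3 and Herpud1, had log2 fold changes of 0.03, -0.23 and 0.20, none past the threshold. Nudt21, a subunit of the machinery that cleaves transcripts before polyadenylation, rose from 66.7 ± 5.14 to 79.7 ± 1.09 CPM (log2 fold change 0.26 ± 0.0742 SE, adjusted p = 0.0487 by edgeR). Cx3cl1, the chemokine fractalkine, fell from 7.84 ± 0.704 to 5.49 ± 0.594 CPM (log2 fold change -0.51 ± 0.120 SE, adjusted p = 0.0333 by edgeR). The calls of Nudt21 and Cx3cl1 were kept in 0 and 2 of the 6 fits that each left out a library.

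**Figure D4:**
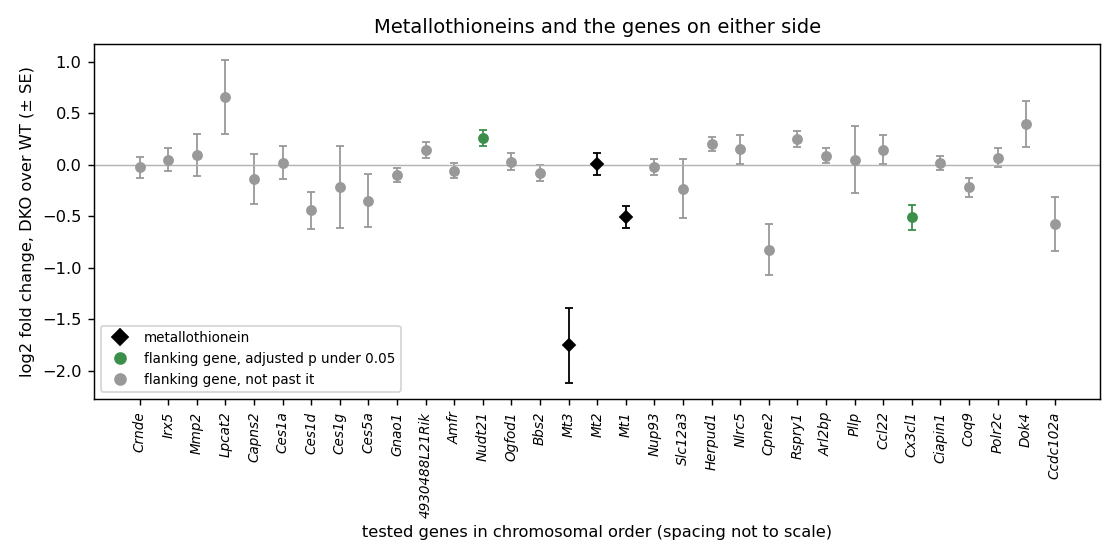
Log2 fold change (DKO over WT, with SE) of Mt3, Mt2 and Mt1 and of the 15 tested genes on each side, in chromosomal order. The flanking genes lie between -0.82 and 0.65, and Mt3 lies at -1.75.

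Zinc transport was read from the Slc30a family, which moves zinc out of the cytosol, and the Slc39a family, which moves it in. Of 8 tested Slc30a genes, 1 rose and none fell, with a median log2 fold change of 0.13 (10.8% of all tested genes were called, and their median was -0.0042). The 1 was Slc30a4, at 125 ± 3.79 CPM in DKO and 104 ± 6.36 in WT (log2 fold change 0.26 ± 0.0715 SE, adjusted p = 0.0423 by edgeR). Slc30a1, the plasma membrane zinc exporter that MTF-1 induces together with Mt1, had 49.2 ± 3.72 CPM in DKO and 43.5 ± 2.57 in WT (log2 fold change 0.17 ± 0.0803 SE, adjusted p = 0.160 by edgeR). Its sign turned with the fragment length covariate. Of 12 tested Slc39a genes, 1 fell and none rose, with a median of 0.03. That gene was Slc39a7, which releases zinc from the endoplasmic reticulum and Golgi, at 46.9 ± 3.15 CPM in DKO and 58.4 ± 4.60 in WT (log2 fold change -0.32 ± 0.0823 SE, adjusted p = 0.0383 by edgeR).

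Of 16 tested genes for copper handling, 2 fell and none rose, with a median of -0.02. This share is near the 10.8% called among all tested genes. Sod1, the cytosolic copper and zinc superoxide dismutase, fell from 222 ± 12.4 to 166 ± 21.8 CPM (log2 fold change -0.42 ± 0.0945 SE, adjusted p = 0.0301 by edgeR). Cox17, which delivers copper to cytochrome c oxidase, fell from 41.1 ± 4.52 to 32.1 ± 2.78 CPM (log2 fold change -0.36 ± 0.0960 SE, adjusted p = 0.0400 by edgeR), a difference that turned to 0.0062 with the fragment length covariate. With the effective-length offset, Sod1 was at -0.28 and Cox17, a gene with a mean transcript length of 436 bases, at -0.05 (adjusted p = 0.0554 and 0.705 by edgeR), and Slc30a4 was at 0.24 (adjusted p = 0.0523 by edgeR). The calls of Slc30a4, Slc39a7, Sod1 and Cox17 were kept in 2, 2, 3 and 2 of the 6 fits that each left out a library.

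The routes that induce Mt1 and Mt2 were read from 3 short lists. No member of any was called by edgeR, against 10.8% of all tested genes. In lists this short, 0 calls is near that share and is not read as a result. Mtf1, the sensor itself, stood at 176 ± 6.42 CPM in DKO and 187 ± 7.25 in WT (log2 fold change -0.09 ± 0.0685 SE, adjusted p = 0.418 by edgeR). Of 6 tested genes in the list of MTF-1 and its reported targets, 1 had an unadjusted p under 0.05, DESeq2 called 0, and the median was -0.03. Of 7 glucocorticoid response genes, 2 had an unadjusted edgeR p under 0.05 and DESeq2 called 1, and the median was 0.05. Of 8 genes in the list of NRF2, the regulator of the oxidative stress response, and its targets, 2 had an unadjusted edgeR p under 0.05 and DESeq2 called 1, and the median was -0.03. Limma-voom and limma on both TPM scales called 0 in each of these 3 lists. Over all 17110 tested genes, DESeq2 called 2943, limma-voom 1685 and limma on the TPM scales 735 and 947. The share of all tested genes with an unadjusted p under 0.05 is not given here.

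**Figure D5:**
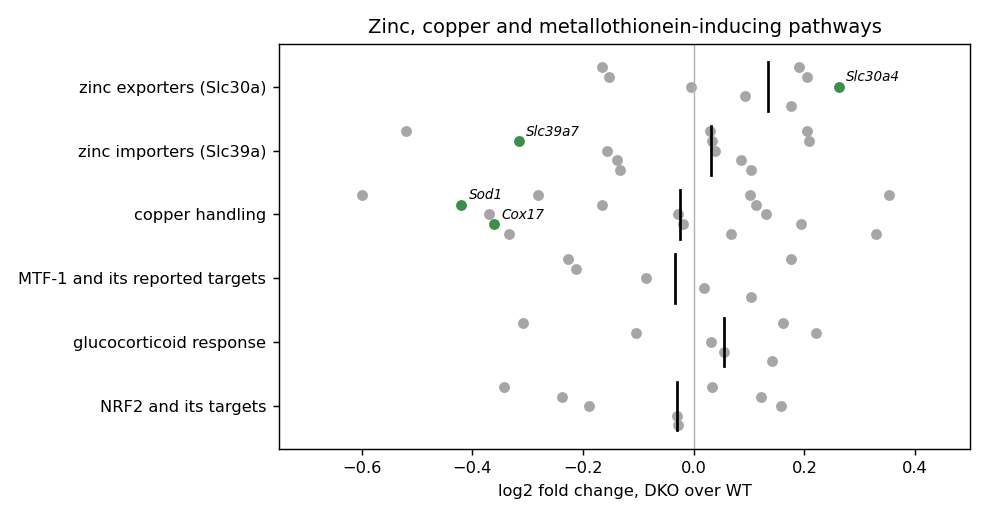
Log2 fold change (DKO over WT) of each tested gene in the lists for zinc transport, copper handling and the routes that induce metallothioneins. Each point is 1 gene, named and green where edgeR's adjusted p was under 0.05, and the black line is the list's median. The 4 named genes lie at 0.26, -0.32, -0.42 and -0.36.

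Whole testis mixes many cell types, and fewer cells of a type cannot be told apart from less RNA per cell. Among all tested genes, 5.10% were called lower and 5.75% higher. Of 7 Leydig cell markers, 3 fell and none rose: Star, which carries cholesterol into mitochondria, was at 58.0% of WT, the steroid enzyme gene Hsd3b6 at 46.9% and the hormone gene Insl3 at 46.1%. The summed Leydig level was 412 to 625 CPM in DKO and 600 to 1150 CPM in WT libraries. Of 8 Sertoli cell markers, 3 fell and none rose, Defb19 to 51.0% and Rhox5 to 73.8% of WT among them, and the sum was 221 to 240 CPM in DKO and 292 to 331 CPM in WT. Of 7 spermatocyte markers, 2 rose and none fell, Sycp3 to 159% and Hormad1 to 145% of WT, although Hormad1 turned to lower with the fragment length covariate. The spermatocyte sum was 906 to 1170 CPM in DKO and 836 to 937 CPM in WT. Called or not, 6 Leydig markers were lower and 1 higher. Of the Sertoli markers 6 were lower and 2 higher, and of the spermatocyte markers 6 were higher and 1 lower. Over 12 alternative fits with all libraries, the log2 fold change was -1.17 to -0.777 for Star and -1.14 to -0.166 for Hsd3b6. It was -1.13 to -0.588 for Insl3, -0.98 to -0.391 for Defb19, -0.448 to -0.334 for Rhox5, 0.162 to 0.745 for Sycp3 and -0.229 to 0.568 for Hormad1. The calls of Star, Hsd3b6, Insl3, Defb19, Rhox5, Sycp3 and Hormad1 were kept in 11, 11, 7, 11, 10, 11 and 5 of these 12 fits. In the 6 fits that each left out a library they were kept in 4, 3, 3, 5, 2, 3 and 1. No gene of the lists for spermatogonia, spermatids, macrophages, peritubular and endothelial cells, epididymis, adipose tissue or red cells was called by edgeR, with 0, 0, 2, 3, 0, 1 and 0 genes at an unadjusted p under 0.05. The share of all tested genes at such a p is not given here. Among these lists, all 6 peritubular and endothelial markers and all 4 adipose markers were lower. The median log2 fold change was -0.257 for peritubular and endothelial markers and -0.269 for Sertoli markers. Lower and higher genes numbered 4 and 2 for macrophages, 5 and 3 for spermatids and 3 and 4 for spermatogonia. The 1 tested epididymal and 2 tested red cell markers were higher. The epididymal markers Lcn5 and Lcn8 had 0 counts in every library. The part of these shifts in the metallothionein values was not tested.

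Likeness was measured as the Euclidean distance between log2 CPM profiles over the 6 libraries, each centred on its own mean, so the genotype contrast enters it. The profile of Mt3 was nearest to Hsd3b6, Rpl37rt, Crip1, Rps28 and Gdf15, at distances of 0.971 to 1.04, against a median of 2.55 over 17109 genes. All 5 were lower in DKO, with log2 fold changes of -1.09, -1.45, -1.21, -1.21 and -1.36. Mt1 stood at rank 429 and Mt2 at rank 7643 in the likeness to Mt3. The genes nearest to Mt1 were Acot8, Rps14, Eme2, Gfra4 and Fbxo27 (distances 0.0821 to 0.131, median 0.822), and Mt2 ranked 6936 there. Those nearest to Mt2 were Tm2d2, Speer4a, Pprc1, Rbakdn and Scnm1 (distances 0.0819 to 0.130, median 0.541). Rpl37rt, Rps28, Rps14 and Speer4a have near-identical copies in the genome, so their counts are uncertain. In the other direction, Mt3 ranked 16915 in the likeness to Mt1 and 17055 in the likeness to Mt2, and Mt1 ranked 13220 in the latter. By this measure none of the 3 metallothioneins was among the 5 nearest of another. With only 5 of 17109 genes taken, that is not read as a result.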

How the data were processed

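RNA of 6 mouse testis libraries was sequenced, 3 labelled DKO and 3 labelled WT, grouped by the genotype label. Per the submitters' processing notes, STAR 2.7.0f, RSEM 1.2.31, DESeq2 1.12.3 and the build mm10 were used. Strand handling and read filters are not given in the sources used here. Per the file headers, the authors deposited expected counts, estimated fragments per gene (93.2% were whole within 0.005). The TPM deposited by the authors account for effective length. The FPKM deposited by the authors were not used.

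Expected counts were rounded, filtered by filterByExpr of edgeR 4.0.16 (17110 genes left), scaled by TMM and tested by quasi-likelihood with genotype as the only term and Benjamini-Hochberg adjustment over all tested genes, at 0.05. The SE is the absolute log2 fold change divided by the root of F. Mean fragment length was recovered, over genes above 3000 bases, as the median gap between length and effective length, plus 1. Log2 CPM for likeness used a prior count of 2. Alternatives were DESeq2 1.42.0 and its size factors, other filters, unrounded counts, length and depth corrections (mgcv 1.9.3), limma 3.58.1 (voom, and with a trend on log2 of TPM plus 1 or 0.1) and leaving out each library. The edgeR fit was run on counts simulated from its own kind of model with planted fold changes. These held no effect of fragment length, so this check says nothing of that difference between the groups. Sequences came from RefSeq (GRCm38.p6, 4 of 4 members matched) and GENCODE M21, aligned with Biopython 1.88.

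Genes named are the 4 members, both targeted genes, Mtf1 and Slc30a1, up to 4 called genes per pathway list and 2 per marker list by smallest p, the 3 tested genes nearest the cluster on each side with any called among 15 on each side, and the 5 nearest profiles per member. The members, the lists and this rule were chosen with earlier results of these data known. That the samples are separate animals rests on the design text, since the labels do not say so. The edgeR p-values set the group difference against the spread between these libraries, estimated in part from other genes.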

Additional observations from a re-analysis of the deposited data

How the results depend on the processing

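Among all tested genes, 1856 were called, 984 higher and 872 lower. DESeq2 called 2943, limma called 735 on log2(TPM + 1) (279 higher, 456 lower) and 947 on log2(TPM + 0.1) (370 higher, 577 lower), and 1 was called with the mean fragment length as a covariate. The fits that each left out a library called from 7 to 3029. In these fits the log2 fold change ranged from -0.653 to -0.414 for Mt1, from -0.144 to 0.104 for Mt2 and from -2.34 to -1.48 for Mt3, and the log2 difference of Mt3 from -1.73 to -1.08 relative to Mt1 and from -2.38 to -1.59 relative to Mt2. Mt1 was at -0.308 with the effective-length offset, at -0.309 with the fragment length covariate and at -0.328 with the length trend removed, against -0.509. Mt2 was at 0.195 with the effective-length offset and 0.373 with the covariate, against 0.00482. Mt3 was at -0.824 with the covariate, against -1.75. Its log2 difference relative to Mt1 was -0.515 with the covariate, taken between fitted log2 fold changes. The -1.36 of the main setting is taken between mean library ratios, a different measure. Mt1 and Mt3 stayed lower in every fit run that included them. A mean count of at least 50 removed Mt3 from the fit and gave no value for it or its ratios. DESeq2 gave Mt3 no adjusted p.

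Called genes of the Slc30a list (1) were 0 with the effective-length offset, the covariate, the length trend removed and both TPM scales, and 0 to 2 without single libraries. Those of the Slc39a list (1) were 0 with the covariate and both TPM scales, and 0 to 2 without single libraries. For copper handling (2) they were 4 without a count filter and with DESeq2, 0 with the effective-length offset, the covariate and log2(TPM + 1), 1 with the length trend removed and log2(TPM + 0.1), and 0 to 5 without single libraries. For the glucocorticoid list (0) they were 1 without a filter, at a mean count of at least 50, with the effective-length offset, the length trend removed and DESeq2, and 0 to 1 without single libraries. For NRF2 (0) there was 1 with DESeq2 and 0 to 1 without single libraries. Flanking genes (2) were 5 with DESeq2, 0 with the covariate and both TPM scales, and 0 to 3 without single libraries. Cell type markers (8) were 0 with the covariate, 5 on both TPM scales and 0 to 15 without single libraries. The list of MTF-1 and its targets had 0 in every fit. The cause of these changes was not tested. The lengths of the WT and DKO fragments differed by 49.2 bases with either set of genes. No paired analysis was possible because the labels give the libraries no numbers shared between the groups, and the replicate numbers used here, given in deposit order, only name libraries. Mt3 rests on 12 to 73 counts per library, which limits its precision.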
